A study of Homo sapiens with 16 samples.

Results

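MYC and its MAX network were followed as 10 genes of the 25221 in the table of read counts, chosen by symbol: MYC, MYCN, MAX, MXD1, MXD3, MXD4, MXI1, MNT, MLX and MGA. A total of 8 of the 10 held enough counts to be tested, and MYCN and MXD3 did not. The counts came from 2 established human leukemia lines, MOLM13, of acute myeloid leukemia with monocytic features (FAB M5a), and K562, of chronic myeloid leukemia in blast crisis. For 4 h the cells were kept with 20 μM of the small molecule Ro 08-2750 (Ro) or with its solvent DMSO alone, at 0.1% DMSO, in RPMI with serum. MOLM13 cells were at passages 8 to 12 and K562 cells at passages 12 to 18. The 16 libraries were 4 per line and treatment, and their titles number the pairs from 1 to 4. Each line is a single established culture model, and no source used here says that the pairs were separate cultures. The p-values therefore measure the spread between these libraries, which may be technical.

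MYC is a transcription factor that binds DNA only as a dimer with MAX, and the dimer recognises a short palindrome called the E-box. MAX also pairs with the MXD proteins, MXI1, MNT and MGA, and these dimers bind the same letters and mostly repress. MLX is a parallel dimer partner, which joins MondoA in the response to glucose and can also bind MNT and some MXD proteins. In blood cells MYC drives growth and division, and its mRNA turns over quickly. Ro was studied as an inhibitor of the RNA-binding protein MSI2, which binds MYC mRNA, so the comparison asks whether MYC and its partners changed after a short exposure.

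The E-box letters were searched in RefSeq promoters of GRCh38.p14, each 300 bases long with 250 before and 50 after the gene start. The motif CACGTG is its own reverse complement, so one search covers both strands. It was found in the promoters of 8.77% of all 27305 genes with an entry and of 11.5% of the genes with at least 10 counts in 4 libraries. MYC had no entry among those used, so its promoter was not searched. Of the 9 network genes with an entry, 3 held the motif, namely MXD4, MNT and MLX. The stretches around these 3 motifs are shown because they are network genes that carry the letters the network binds, with the motif in capitals and each read in the direction of its gene. They lie upstream of the gene starts, by 238 bases in MXD4 (chr4:2262322-2262359, minus strand), 193 in MNT (chr17:2401228-2401273, minus strand) and 50 in MLX (chr17:42567030-42567075, plus strand).
MXD4: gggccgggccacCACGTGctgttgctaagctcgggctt
MNT: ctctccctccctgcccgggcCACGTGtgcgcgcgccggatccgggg
MLX: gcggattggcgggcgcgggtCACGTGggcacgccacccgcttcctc
A match is a description of letters and not a measured binding site.

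The libraries held between 3143129 and 43571060 counts, and the smallest were K562 DMSO 2 and K562 DMSO 4. The unit of a level here is CPM, counts scaled to library size with TMM factors common to the 16 libraries. The kit reads 3′ ends, so counts do not grow with gene length and levels of different genes were not divided by length. The floor of 3 counts was 0.872 CPM in the smallest library and 0.0670 in the largest, and it covers counting error only. A single transcript, LOC100507412, took 4.11% to 24.3% of the counts in MOLM13 libraries and 0.269% to 6.44% in K562 libraries. The sum of 13 erythroid markers was 2176 to 3195 CPM in K562 DMSO and 32.1 to 47.5 CPM in MOLM13 DMSO, and GATA1 stayed at or under 2 counts in every MOLM13 library. HBG2 made up much of the erythroid sum, with an average of 1667 CPM in K562 DMSO. HBE1 was at 0 in all 16 libraries, and EPOR averaged 5.30 CPM in K562 DMSO and 3.71 CPM in MOLM13 DMSO. The sum of 13 monocytic and acute myeloid leukemia markers was 732 to 993 CPM in MOLM13 DMSO and 217 to 317 CPM in K562 DMSO. Of that list, CSF1R averaged 322 CPM in MOLM13 DMSO and 131.8 CPM in K562 DMSO, FLT3 159.6 CPM in MOLM13 DMSO, and HOXA9 was at 0 in K562. HOXA10 and FCGR1A were at 0 in all 16 libraries and CD14 never exceeded 8 counts. CD33 (14.8 and 12.3 CPM) and LYZ (23.3 and 17.9 CPM) averaged close to each other in MOLM13 DMSO and K562 DMSO.

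MYC, the activating member, had a lower level with Ro in each of the 8 pairs. Among MOLM13 libraries, the DMSO libraries held 33.5, 47.0, 57.2 and 87.4 CPM in pairs 1 to 4. The Ro libraries held 12.1, 32.4, 31.2 and 81.9 CPM. In such bulk samples fewer cells with MYC RNA and less of it per cell cannot be told apart. The ranges overlapped, with pair 4 the highest under both treatments, while within each pair the Ro library was the lower. The Ro level was 36.2%, 68.9%, 54.6% and 93.7% of the DMSO level in pairs 1 to 4. The log2 changes were -1.46, -0.54, -0.87 and -0.09, a mean of -0.74 ± 0.57 (SD, n = 4 pairs).

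The test of this change depended on the pairing. Without the pair in the model, the MYC estimate in MOLM13 was -0.51 (log2, SE 0.48) with an adjusted p of 0.9999 (edgeR quasi-likelihood test, Benjamini-Hochberg), and 0 of 15031 genes passed. Leaving out 1 library moved that estimate between -1.13 (without MOLM13 Ro 4) and -0.22 (without MOLM13 DMSO 4 or Ro 1). Such a fit leaves the partner of the dropped library unmatched, so differences between pairs enter its estimate. At an unadjusted p under 0.05, 0 of 8 network genes and 1.16% of all genes passed, and DESeq2 called 0.00665% of genes and no network gene. With the pair as a block, MYC fell by 0.63 (log2, SE 0.13, 95% interval -0.89 to -0.37), with an edgeR adjusted p of 0.00868. That is 0.645 times the DMSO level. Under that fit MYC was the 1 of 8 network genes called, where 2.11% of all genes tested were called and 1.17% were called lower. At an unadjusted p under 0.05 the fit held 3 of 8, MYC, MAX and MXD4, beside 17.2% of all genes. The call was lost without pair 1, 2 or 3 (edgeR adjusted p of 0.0627, 0.0628 and 0.162), while without pair 4 the change was -0.86 (adjusted p = 2.33e-05). DESeq2 with the same block gave -0.73 and an adjusted p of 0.149, where it called 1.77% of genes and 0 of the 8. The Ro and DMSO ranges of the 8 genes all overlapped in MOLM13, and 1.35% of all genes had ranges that did not.

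In K562 the MYC levels were 23.9, 43.9, 30.0 and 33.1 CPM with DMSO. With Ro they were 16.6, 24.5, 25.1 and 23.9 CPM. The highest Ro library was above the lowest DMSO library, so the ranges overlapped, although the Ro library was the lower of every pair. The Ro level was 69.5%, 55.8%, 83.7% and 72.1% of the DMSO level. The log2 changes by pair were -0.52, -0.84, -0.26 and -0.47, a mean of -0.52 ± 0.24 (SD, n = 4 pairs). The largest of these came from K562 pair 2, whose DMSO library held 151 MYC counts in the smallest library of the series.

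The fitted MYC change in K562 was -0.51 (log2, SE 0.21) without the block and -0.51 (SE 0.15) with it. Neither passed, with edgeR adjusted p of 0.9998 and 0.947, and 0 of 15227 genes passed in either fit. At an unadjusted p under 0.05, 1 of 8 network genes passed in each fit, beside 1.23% and 2.11% of all genes. DESeq2 called 0 genes without the block and 2 (0.0131%) with it, neither a network gene. The ranges of all 8 network genes overlapped in K562, where 1.25% of all genes had ranges that did not. With only pairs 1 and 3, whose DMSO libraries were deep, MYC fell by 0.39 (SE 0.12) with an edgeR adjusted p of 0.0305, where 3.06% of genes were called. Of the 14320 genes tested in both lines, 0.496% were lower with Ro in all 8 pairs, a share that was not tested. MYC was among them, but it was followed with earlier results of these data known. In MOLM13 the genes lower in all 4 pairs were MYC, MAX, MXD4 and MNT, or 4 of 8, beside 14.9% of all genes. In K562 MYC was the 1 of 8, beside 4.64%.

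**Figure D1:**
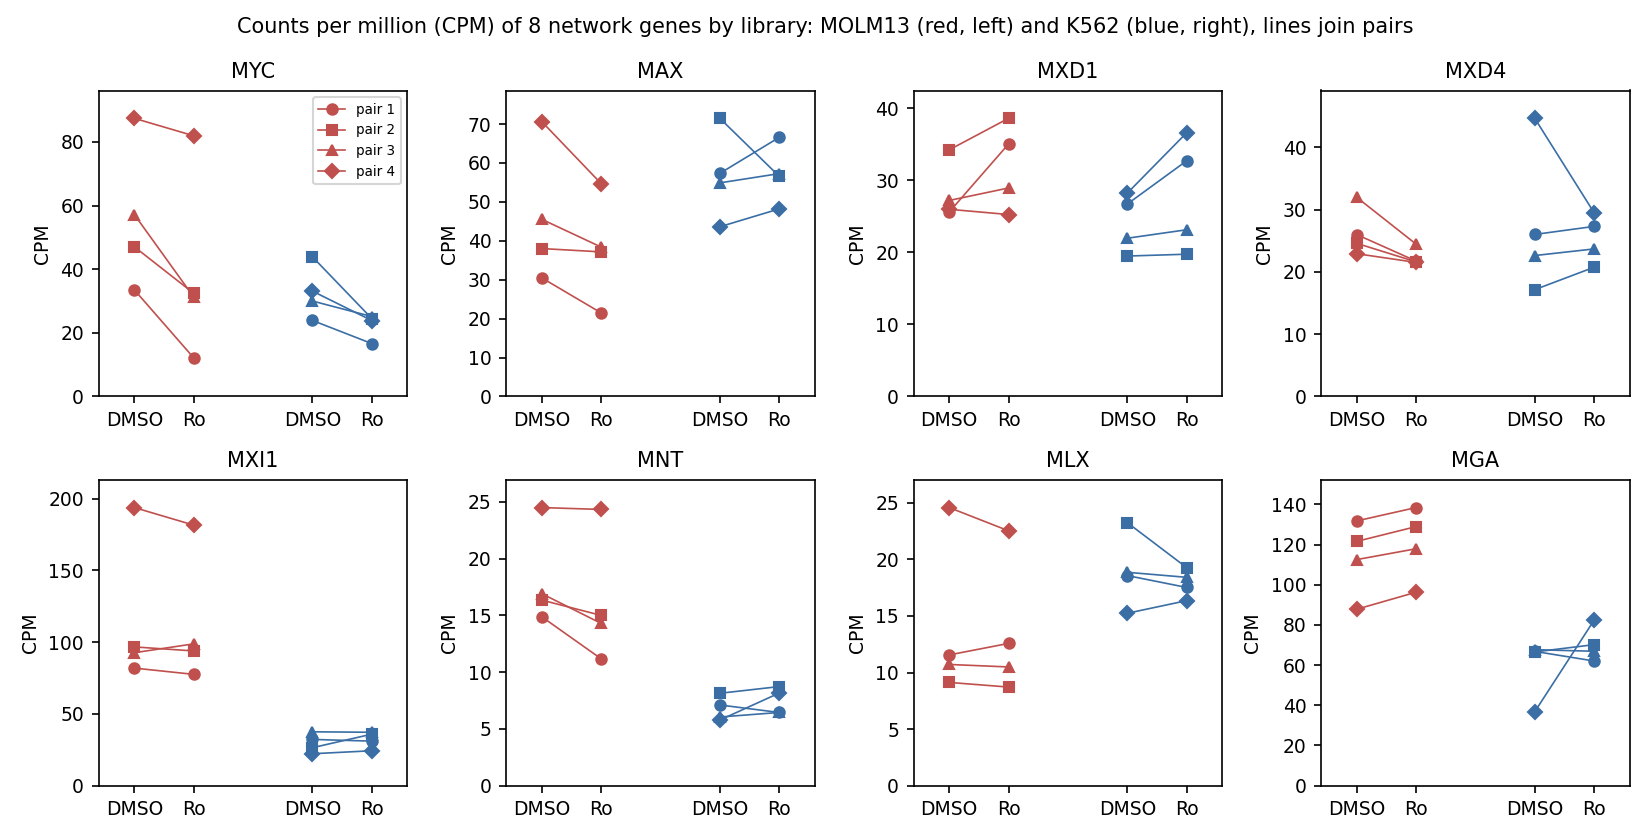
Levels (CPM, linear axis from 0) of the 8 tested network genes in each of the 16 libraries, MOLM13 in red on the left and K562 in blue on the right of each panel, with lines joining the DMSO and Ro libraries of a pair. MYC slopes down in all 8 pairs, while MXI1 and MNT in MOLM13 lie above all K562 libraries.

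The difference between the lines in the MYC change was 0.01 (log2, SE 0.55, 95% interval -1.14 to 1.15) without a block and -0.19 (SE 0.25, 95% interval -0.73 to 0.35) with pairs nested in lines. The edgeR adjusted p was 0.99997 and 0.841. For the whole network 0 of 8 genes differed between the lines in either edgeR fit, and the background was 0 of 16224 genes. At an unadjusted p under 0.05, 1.34% of genes passed without the block and 6.01% with it, and 0 of 8 network genes did in either. DESeq2 called 0 of the 8 with or without the block, and with it 0.0185% of all genes. The intervals span changes of either sign, so neither a line difference nor its absence was shown.

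The other MYC genes were low. MYCN, the neural relative of MYC, never exceeded 4 counts in a library and totalled 12 counts over the 16. Its antisense neighbour MYCNOS totalled 10 counts. MYCL, the remaining family member, lay above the floor with 2.46 to 9.77 CPM in MOLM13 DMSO libraries and 1.93 to 7.53 CPM in K562 DMSO libraries. It was lower with Ro in 4 of 4 MOLM13 pairs, and the blocked change of -0.36 (log2, SE 0.15) did not pass, with an edgeR adjusted p of 0.212.

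MAX, the common partner, did not pass the test in either line. Its MOLM13 DMSO libraries held 30.5, 38.0, 45.5 and 70.6 CPM and its MOLM13 Ro libraries 21.5, 37.2, 38.4 and 54.7 CPM. The Ro library was the lower in all 4 pairs and the ranges overlapped. With the block the change was -0.26 (SE 0.08, 95% interval -0.43 to -0.09) and the edgeR adjusted p was 0.110, with an unadjusted p of 0.00532. In K562 MAX held 57.3, 71.5, 54.9 and 43.6 CPM with DMSO and 66.6, 56.6, 57.3 and 48.2 CPM with Ro. The Ro library was the higher in 3 pairs and the lower in 1, and the blocked change was 0.03 (SE 0.14). MAX overlaps FNTB and the CHURC1-FNTB readthrough on the opposite strand near its 3′ end, and the strand setting of the counting is not given in the sources used here.

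**Figure D2:**
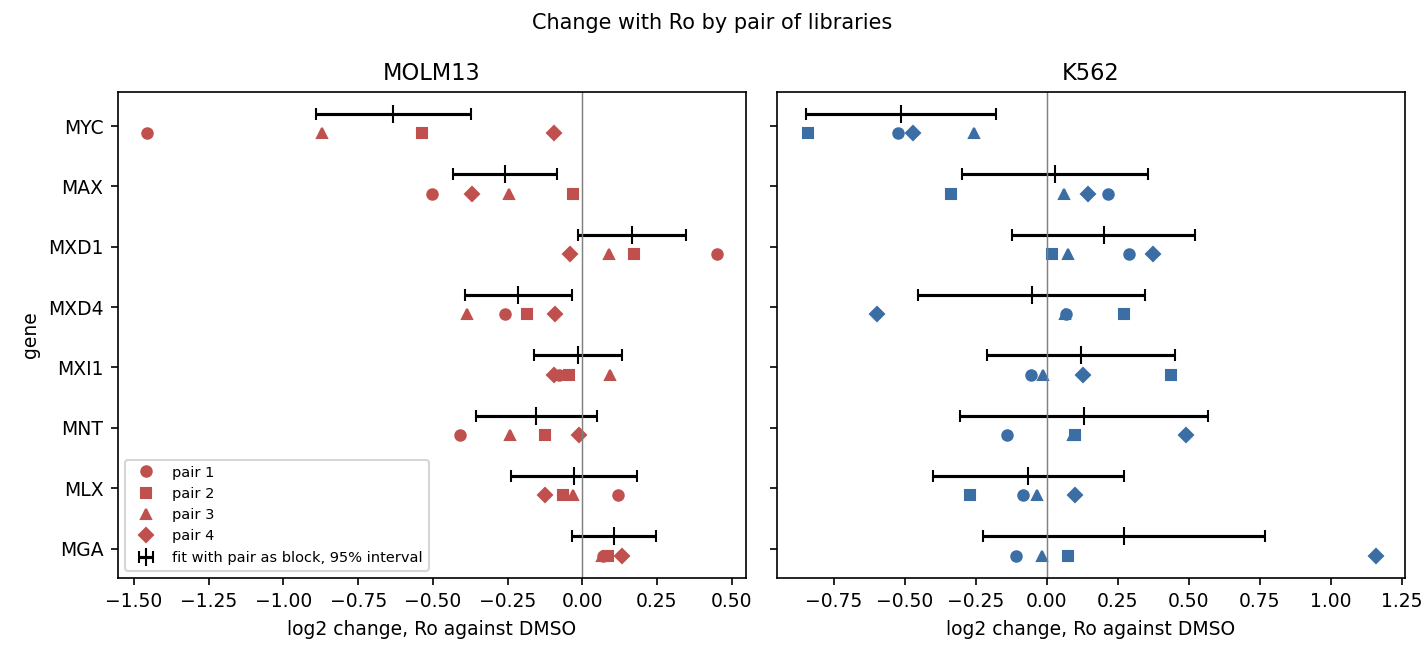
Log2 change with Ro of each network gene in each pair (colored points, one shape per pair) and the estimate of the fit with the pair as a block (black bar, 95% interval) in MOLM13 and K562. MYC has its 4 MOLM13 points between -1.46 and -0.09 and its 4 K562 points between -0.84 and -0.26, all below 0.

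MYC counts per MAX count compared the RNA of activator and partner within a library, free of library scaling. The ratio does not measure the proteins, and it carries the uncertainty of the MAX counts. In MOLM13 the ratio was 1.10, 1.24, 1.26 and 1.24 with DMSO and 0.565, 0.873, 0.814 and 1.498 with Ro. It was lower with Ro in pairs 1 to 3 and higher in pair 4. In K562 the ratio was 0.417, 0.614, 0.546 and 0.759 with DMSO. With Ro it was 0.249, 0.433, 0.438 and 0.495. It was lower with Ro in all 4 K562 pairs, and the MOLM13 DMSO ratios lay above all 8 K562 ratios.

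**Figure D3:**
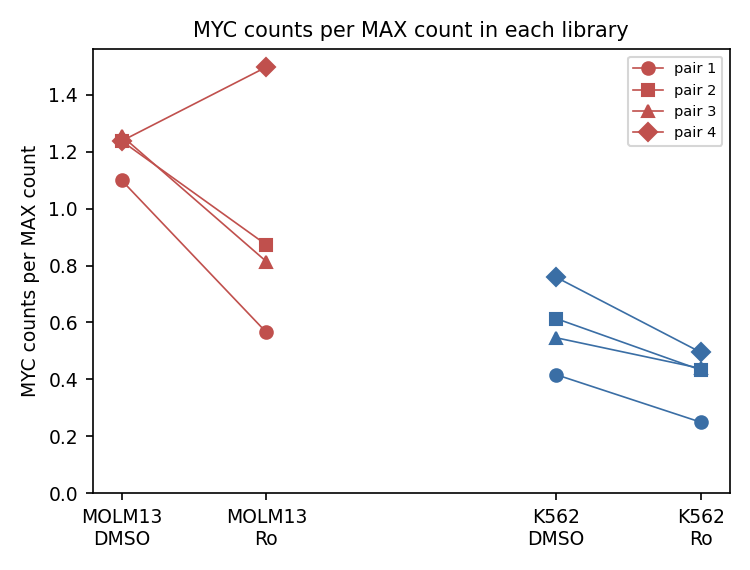
MYC counts divided by MAX counts in each library, with lines joining pairs. The 4 MOLM13 DMSO libraries lie between 1.10 and 1.26, the K562 DMSO libraries between 0.417 and 0.759, and 7 of 8 lines slope down.

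Among the partners that oppose MYC, MXD1, which rises as myeloid cells mature, held 25.6, 34.2, 27.2 and 26.0 CPM in MOLM13 DMSO and 35.0, 38.6, 28.9 and 25.2 CPM in MOLM13 Ro. It was higher with Ro in 3 of 4 pairs, and the blocked change of 0.17 (SE 0.09) had an edgeR adjusted p of 0.335. In K562 it held 26.7, 19.5, 21.9 and 28.2 CPM with DMSO and 32.7, 19.7, 23.1 and 36.6 CPM with Ro. Those values were higher in 4 of 4 pairs, where 6.84% of all genes tested in K562 were, and the blocked change was 0.20 (SE 0.14, adjusted p = 0.947 in edgeR).

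MXD4, of the same repressor family, held 26.0, 24.6, 32.0 and 22.9 CPM in MOLM13 DMSO and 21.7, 21.6, 24.5 and 21.5 CPM in MOLM13 Ro. It was lower in 4 of 4 pairs with overlapping ranges, and the blocked change of -0.21 (SE 0.09) had an edgeR adjusted p of 0.201. In K562 it held 26.0, 17.1, 22.6 and 44.7 CPM with DMSO and 27.3, 20.7, 23.7 and 29.5 CPM with Ro. The K562 DMSO 4 library was the high one, and pair 4 was the only K562 pair with a lower Ro level. A second row that carries the symbol MXD4 belongs to the microRNA gene MIR4800 and held 0 counts.

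MXI1, another MAX-binding repressor, had the largest difference between the lines of the 8 genes and the blocked Ro estimate nearest 0 in MOLM13. MOLM13 held 81.9, 96.7, 92.6 and 193.7 CPM with DMSO and 77.5, 93.8, 98.8 and 181.5 CPM with Ro. Pair 4 stood high under both treatments, and the blocked change was -0.01 (SE 0.07, 95% interval -0.16 to 0.13). K562 held 32.2, 26.4, 37.5 and 22.2 CPM with DMSO and 31.0, 35.9, 37.2 and 24.3 CPM with Ro. The K562 pairs split evenly between higher and lower.

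MNT, the widely expressed repressor partner of MAX and MLX, held 14.9, 16.3, 16.9 and 24.5 CPM in MOLM13 DMSO and 11.2, 15.0, 14.3 and 24.3 CPM in MOLM13 Ro. All 4 pairs were lower, pair 4 by 0.01 on the log2 scale, and the blocked change of -0.15 (SE 0.10) had an edgeR adjusted p of 0.435. K562 held 7.11, 8.14, 6.05 and 5.78 CPM with DMSO and 6.45, 8.73, 6.45 and 8.16 CPM with Ro. MNT overlaps an antisense gene near its 3′ end that has no row of its own. The MNT counts behind the K562 DMSO values were as low as 28 in a library, and 3 of 4 pairs were higher.

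MGA, the giant member that also sits in a Polycomb-type repressor complex, held 131.7, 121.6, 112.5 and 87.8 CPM in MOLM13 DMSO and 138.4, 128.9, 117.9 and 96.3 CPM in MOLM13 Ro. It was higher in 4 of 4 pairs, by 0.07 to 0.13 on the log2 scale, where 10.2% of all genes tested in MOLM13 were higher in all pairs. The blocked change of 0.11 (SE 0.07) had an edgeR adjusted p of 0.444. K562 held 66.8, 66.5, 67.7 and 36.8 CPM with DMSO and 62.0, 70.2, 66.9 and 82.4 CPM with Ro. The K562 pair 4 change of 1.16 came with the low DMSO 4 library, one of the shallowest, and the other 3 pairs lay between -0.11 and 0.08. MGA too overlaps a noncoding gene on the opposite strand near its 3′ end that has no row of its own.

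MLX held 11.6, 9.13, 10.7 and 24.6 CPM in MOLM13 DMSO and 12.6, 8.71, 10.5 and 22.5 CPM in MOLM13 Ro, again with pair 4 apart from the rest. The blocked change was -0.03 (SE 0.10). K562 held 18.6, 23.2, 18.9 and 15.2 CPM with DMSO and 17.5, 19.3, 18.4 and 16.4 CPM with Ro, with a blocked change of -0.06 (SE 0.15). MLX shares its 3′ region with PSMC3IP on the opposite strand, so its counts are uncertain in the same way as those of MAX. MXD3, the remaining repressor, had 2 counts in all, and RAB24 on the same strand overlaps its 3′ end.

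The order of mean levels differed between the lines. In MOLM13 DMSO libraries MXI1 (116 ± 52.0 CPM, SD, n = 4) and MGA (113 ± 18.8) led and did not differ beyond their spread. MXI1 was above MGA in 1 of these 4 libraries only, DMSO 4 (193.7 against 87.8 CPM). MYC (56.3 ± 22.9) and MAX (46.2 ± 17.4) followed with overlapping ranges, and all MGA values lay above all MYC values by a small margin. In K562 DMSO libraries MGA (59.5 ± 15.1) and MAX (56.8 ± 11.5) led, and MYC (32.7 ± 8.37) and MXI1 (29.6 ± 6.67) overlapped. MNT (6.77 ± 1.08) was lowest in K562, with no overlap with MLX above it (19.0 ± 3.29).

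Between the lines under DMSO MXI1, MNT, MGA and MYC were higher in MOLM13. MXI1 was 3.92-fold higher (log2 1.97, SE 0.30, edgeR adjusted p = 0.000129), with no overlap of the libraries. MNT was 2.73-fold higher (log2 1.45, SE 0.24, edgeR adjusted p = 0.000270) and MGA 1.91-fold higher (log2 0.93, SE 0.24, edgeR adjusted p = 0.00657), both without overlap. MYC was 1.75-fold higher (log2 0.81, SE 0.29, edgeR adjusted p = 0.0395) with overlapping ranges. These 4 of 8 calls stood beside 41.3% of all genes tested called and 21.1% called higher in MOLM13, and 3 of 8 ranges without overlap beside 39.4%. MAX (-0.28), MXD1 (0.23), MXD4 (-0.06) and MLX (-0.41) did not pass, with 95% intervals that reached from -1.08 to 0.67 on the log2 scale.

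The MYC call between the DMSO libraries was the least firm of these. It was lost without MOLM13 DMSO 3 or 4 and without K562 DMSO 1, 3 or 4 (edgeR adjusted p of 0.0754, 0.106, 0.129, 0.104 and 0.0511). Scaled to library totals alone the difference was 0.40 with an adjusted p of 0.307, and in a single fit of all 16 libraries it was 0.81 with an adjusted p of 0.102. That scaling moves the median of all genes down by 0.41 on the log2 scale, and under it MXI1 (1.57), MNT (1.05) and MGA (0.54, adjusted p = 0.0595 by edgeR) also had positive differences, the last no longer a call. MLX was called lower in MOLM13 under that scaling (-0.82, edgeR adjusted p = 0.0439) and without MOLM13 DMSO 4 (-0.84, 0.00741).

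The Ro libraries were not used in the DMSO comparison but belong to the same numbered pairs, so they are not an independent repeat. In them MXI1 was 3.52-fold higher in MOLM13 (edgeR adjusted p = 4.00e-05), MNT 2.18-fold (0.00126 by the same test) and MGA 1.71-fold (0.00139). These 3 genes again showed no overlap between the lines, as did 49.1% of all genes. MAX was lower in MOLM13 (log2 -0.59, SE 0.23, edgeR adjusted p = 0.0454), and lost the call without any of Ro libraries 1 to 3 of either line (0.0699 to 0.0978), with no filter on low counts (0.0518) and in a single fit of all 16 libraries (0.0703). The 4 of 8 calls stood beside 54.3% of all genes called, 26.8% higher and 27.5% lower in MOLM13. MYC differed by 0.81 (SE 0.40, edgeR adjusted p = 0.107). Without MOLM13 Ro 1 the MYC difference was 1.11 (adjusted p = 0.00711), and without MOLM13 Ro 4 it was 0.19. Without MOLM13 Ro 4 MLX was called, at -0.74 (edgeR adjusted p = 0.00187), and with library totals MGA was not (0.47, 0.0508).

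**Figure D4:**
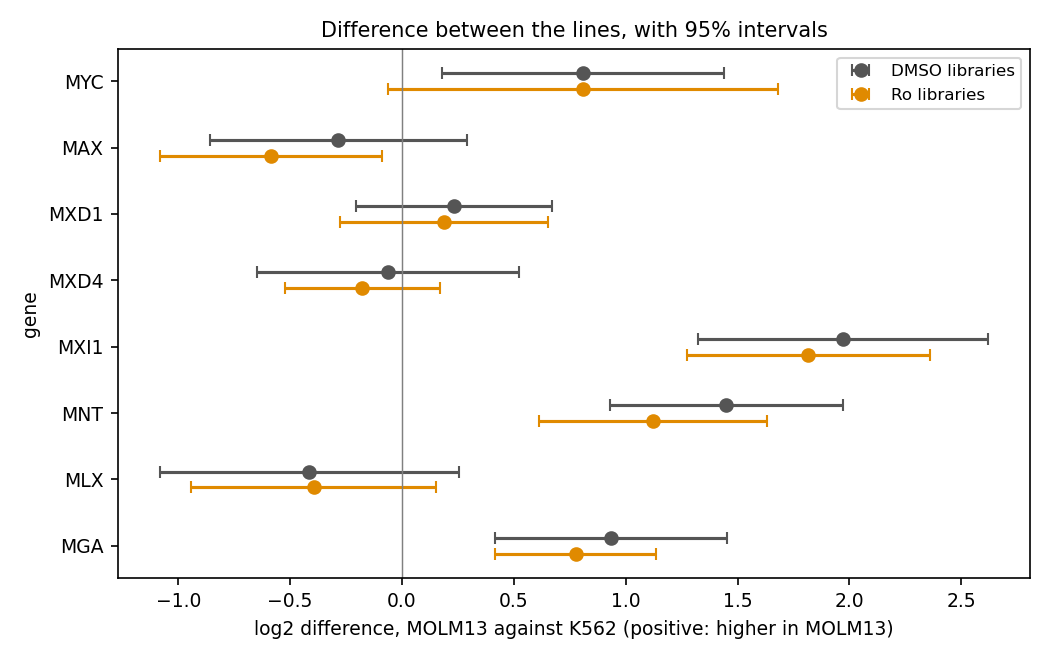
Log2 difference of each network gene between MOLM13 and K562 (positive values are higher in MOLM13) in DMSO libraries (grey) and Ro libraries (orange), with 95% intervals of the edgeR fits. MXI1, MNT and MGA lie above 0 in both, and MAX, MLX and MXD4 have estimates below 0 in both.

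Pair 4 of MOLM13 stood apart in most members under both treatments. MYC, MAX, MXI1, MNT and MLX were highest in it and MGA lowest, among both the DMSO and the Ro libraries. The share of LOC100507412 in MOLM13 DMSO libraries was 22.3%, 14.6%, 12.0% and 4.11% in pairs 1 to 4, and in Ro libraries 24.3%, 15.3%, 9.16% and 6.29%. MYC and MAX ran in the opposite order across the DMSO pairs. The part of this share in the levels was not tested.

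The genes whose levels ran most like those of MYC were sought among 14320 genes by the correlation of log2 CPM over the 16 libraries, after centring on the mean of each line. These are descriptions over libraries that share pairs and depth, and carry no test. The most alike were MCAT (r = 0.95), a mitochondrial fatty acid synthesis enzyme, RALY-AS1 (0.94), CEBPD (0.93), a transcription factor of myeloid cells, UNC93B1 (0.93), which carries Toll-like receptors to endosomes, and ACSL1 (0.92), which activates fatty acids. The lowest were ZNF430 (-0.92), STAM2 (-0.90), ANAPC10 (-0.90), SLC38A6 (-0.88) and PHTF1 (-0.88). Within the network the r with MYC was 0.79 for MAX, 0.77 for MNT, 0.57 for MXI1 and 0.53 for MLX. It was -0.005 for MXD4, -0.51 for MXD1 and -0.53 for MGA. Among all the genes compared, MAX and MNT stood at percentiles 97.9 and 97.1. MXI1, MLX, MXD4, MXD1 and MGA stood at 86.3, 84.1, 51.8, 11.7 and 10.7, which is not extreme. Within lines MAX had 0.95 in MOLM13 and -0.01 in K562, MNT 0.95 and 0.07, and MXI1 0.80 and -0.32. MLX had 0.55 and 0.44, MXD4 0.19 and -0.21, MXD1 -0.61 and -0.57, and MGA -0.87 and -0.26. LOC100507412 had an r with MYC of -0.80 in MOLM13 and -0.39 in K562. Over the 16 libraries it was -0.52, at percentile 11.7.

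A total of 65 genes that MYC is known to raise were examined next, mostly of nucleolar and nucleotide metabolism, and 58 were tested in MOLM13. With the pair as a block 1 rose and 4 fell, 8.62% of the list beside 2.11% of all genes, and 50 of 58 estimates were negative with a median of -0.12 against 0.00 for all genes. Without the block 0 passed in edgeR, and 2 had an unadjusted p under 0.05, beside 1.16% of all genes. The list median without the block was -0.13, and it was 0.014 without MOLM13 DMSO 4, -0.061 without MOLM13 Ro 1 and -0.31 without MOLM13 Ro 4. Each of these fits with a library left out kept its partner unmatched. With the block the list median was -0.17 to -0.09 when a pair was left out. The list median by pair was -0.36, -0.01, -0.16 and -0.16 in pairs 1 to 4. FARSA, a subunit of phenylalanyl-tRNA synthetase, fell by 0.37 (SE 0.08, edgeR blocked adjusted p = 0.0175). UNG, which removes uracil from DNA, RABEPK and SLC19A1, the reduced folate carrier, fell by 0.38, 0.38 and 0.31, and were named after their values were seen. WDR74, a ribosome assembly factor, rose by 0.88 (SE 0.17) and went against the list. It held 3.76, 3.68, 3.62 and 3.35 CPM with DMSO and 8.38, 7.97, 7.56 and 3.85 CPM with Ro, with no overlap. FARSA kept its call without pair 2 or pair 4, WDR74 without pair 1 or pair 4, UNG and RABEPK without pair 4, and SLC19A1 in none of these fits. DESeq2 with the block called the 4 that fell and also RRP9 (-0.44, adjusted p = 0.0494), and not WDR74.

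Of the MYC-raised genes 53 had a promoter entry, and 28 of these (52.8%) held the E-box letters. In MOLM13 the blocked median was -0.19 over the 25 tested genes with the motif and -0.10 over the 21 without it. Genes with and without the letters thus overlapped, with ranges of -0.40 to 0.08 and -0.38 to 0.88. UNG carries 2 copies upstream of its start, at 232 bases (chr12:109097922-109097965, plus strand) and 47 bases (chr12:109098105-109098150, plus strand), in 1 of its 2 promoter entries. They are shown because UNG was called in MOLM13 and holds the motif 2 times.
UNG distal: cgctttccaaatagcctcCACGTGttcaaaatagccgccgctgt
UNG proximal: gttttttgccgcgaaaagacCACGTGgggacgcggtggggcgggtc
UNG held 95.9, 124.1, 141.6 and 198.3 CPM in MOLM13 DMSO and 54.5, 103.0, 106.8 and 177.3 CPM in MOLM13 Ro. It was lower in each pair while the ranges overlapped.

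In K562 0 of 57 tested MYC-raised genes were called by edgeR with or without the block, 0 had an unadjusted p under 0.05 in either fit, and DESeq2 called 0 genes of any list with or without the block. The median was 0.07 with the block against 0.02 for all genes. With only pairs 1 and 3, the listed genes called were PLK1, FTH1, NDUFAF4, UNG, CCNT2 and ARRDC3, all higher with Ro and named after their values were seen. These were 6 of 129 tested genes of the lists (4.65%), near the 3.06% of all genes called in that fit, so nothing about the lists is read from them. FTH1, the ferritin heavy chain, was higher by 1.06 (SE 0.22) and PLK1, a mitotic kinase, by 0.48 (SE 0.10), with edgeR adjusted p of 0.000319 and 0.000331. Pseudogenes share sequence with FTH1, so its counts are uncertain. UNG was higher there by 0.33, while over all 4 K562 pairs its changes were 0.56, -0.03, 0.12 and -0.47. The line difference in the Ro change was called in 0 of the listed genes by edgeR with or without the block. Over all 4 K562 pairs CAD (-0.49) and MYBBP1A (0.41), of the MYC-raised list, had the smallest blocked p and an edgeR adjusted p of 0.947. By pair CAD changed by -0.22, -0.05, -0.19 and -1.56 and MYBBP1A by 0.47, -0.19, 0.35 and 1.01. Both were largest in pair 4, which holds the shallow K562 DMSO 4 library.

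Of 13 genes that MYC is known to repress, 12 were tested in MOLM13. With the block 3 rose and 2 fell, 41.7% of this short list beside 2.11% of all genes, so the calls went both ways. The list median was 0.23 against 0.00 for all genes. Without the block 0 passed in edgeR, and 1 had an unadjusted p under 0.05, beside 1.16% of all genes. The list median without the block, 0.31, became -0.0053 with a minimum of 50 counts. GADD45A, a growth arrest gene, held 13.7, 19.7, 19.0 and 23.6 CPM with DMSO and 27.2, 34.4, 35.3 and 36.2 CPM with Ro, with no overlap. It rose by 0.82 (SE 0.09, edgeR blocked adjusted p = 2.02e-05). CDKN1A, which encodes the CDK inhibitor p21, held 41.3, 99.8, 107.6 and 103.2 CPM with DMSO and 53.3, 153.2, 162.3 and 206.4 CPM with Ro. It rose by 0.68 (SE 0.08, edgeR blocked adjusted p = 8.32e-05), higher in each pair with overlapping ranges and pair 1 the lowest under both treatments. TXNIP, a thioredoxin inhibitor, rose by 0.54, while CEBPA, a myeloid transcription factor, and CDKN1B, another CDK inhibitor, fell by 0.29 and 0.32. GADD45A and CDKN1A are also known targets of p53. The paper lists CDKN1A among the mRNAs that MSI2 binds, and it reports more p21 protein after Ro in both lines. It describes the changes of MSI2 target mRNAs by qPCR as modest. In K562 the CDKN1A RNA changed by -0.08, 0.42, 0.07 and -0.34 (log2) in pairs 1 to 4. Its K562 levels were low, 2.32 to 5.08 CPM with DMSO and 2.20 to 6.63 CPM with Ro. What lay behind these changes was not tested. GADD45A and CDKN1A were called in each blocked fit that left out 1 pair. TXNIP kept its call without pair 4 only, CEBPA without pair 2 or pair 4, and CDKN1B in none. In K562 0 of 10 tested genes were called, and KLF6 at 0.37 had the smallest p (0.0237 unadjusted, 0.947 adjusted by edgeR). GADD45A was higher in 4 of 4 K562 pairs, as were 6.84% of all genes tested there. Its changes were 0.20, 0.29, 0.11 and 1.55 in pairs 1 to 4. The last came with the shallow K562 DMSO 4 library, at 29.4 CPM beside 103.2, 118.3 and 105.3 CPM in DMSO 1 to 3.

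Of 7 genes driven by MondoA and MLX, TXNIP and ARRDC4, a related arrestin, rose in MOLM13 with the block. That was 28.6% of this short list beside 2.11% of all genes. The list median was 0.17 against 0.00 for all genes. TXNIP is also on the MYC-repressed list. Without the block 0 passed in edgeR and 1 had an unadjusted p under 0.05, beside 1.16% of all genes. TXNIP held 143.9, 161.9, 161.3 and 303.8 CPM with DMSO and 289.5, 246.8, 248.8 and 284.2 CPM with Ro, higher in pairs 1 to 3 and lower in pair 4. It rose by 0.54 (SE 0.11, edgeR blocked adjusted p = 0.0102). ARRDC4 held 3.61, 3.81, 3.67 and 2.81 CPM with DMSO and 7.33, 6.08, 6.05 and 3.05 CPM with Ro. It rose by 0.62 (SE 0.16, edgeR blocked adjusted p = 0.0468). Both calls held without pair 4 and were lost without any other pair and in DESeq2 with the block. In K562 0 of 7 were called and ARRDC4 was at -0.22. ARRDC4 carries the E-box letters 210 bases upstream of its start (chr15:97960473-97960518, plus strand), shown because it was called and holds the motif.
ARRDC4: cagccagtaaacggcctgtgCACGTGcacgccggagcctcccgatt
MLX itself (-0.03 with the block) and MLXIP, which encodes MondoA (-0.06), did not pass in MOLM13.

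The remaining lists held few calls in MOLM13 with the block, where 2.11% of all genes were called. Of 19 tested genes that control MYC protein turnover, GSK3B, a kinase that marks MYC for destruction, rose by 0.28 (SE 0.07, edgeR adjusted p = 0.0433), and AURKB was at -0.29 (0.0531 by the same test), which DESeq2 with the block called (-0.30, adjusted p = 0.0456). The GSK3B call was lost without pair 1, 3 or 4. Of 14 MYC coactivators 0 were called, with BPTF at 0.21 and RUVBL1 at -0.18. Of 13 SIN3 and HDAC corepressors, which work with the MXD proteins, 0 were called, with SAP30 at -0.27 and ARID4B at 0.19. Of 10 partners of MGA in its Polycomb-type complex 0 were called, with TFDP1 at -0.15 and CBX3 at -0.13. Of MYCL, MLXIP and MLXIPL 0 were called, with MLXIPL at -0.43. In edgeR without the block 0 genes of these lists passed in MOLM13. In K562 0 passed in either fit, and genes with the smallest p in these lists were CCNT2 (0.53), SIN3A (-0.27) and RBBP4 (0.29), PCGF6 (0.18) and CBX3 (0.18), and SKP2 (0.23) and AURKA (0.25).

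**Figure D5:**
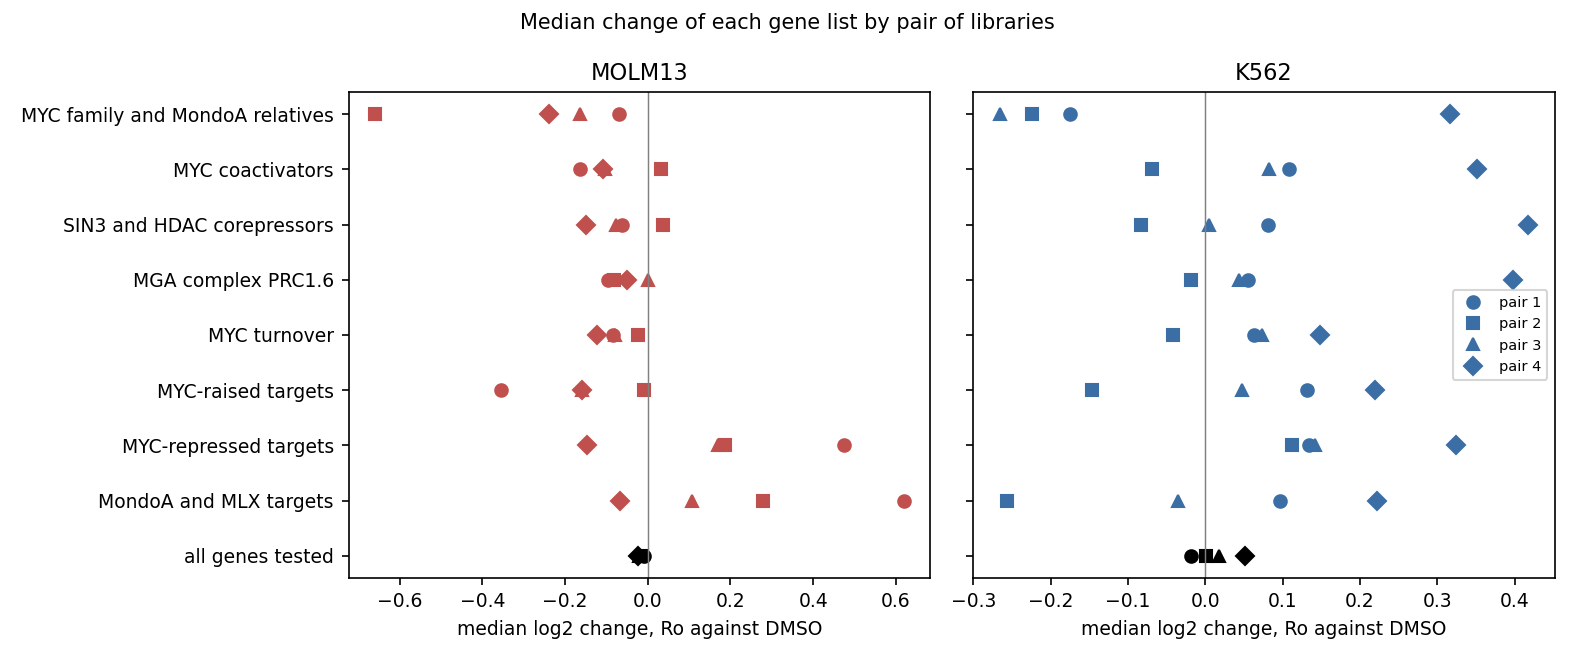
Median log2 change with Ro of each gene list in each pair of libraries, with the median of all genes tested in black, for MOLM13 (red) and K562 (blue). The MYC-repressed and MondoA and MLX lists in MOLM13 have pair medians up to 0.48 and 0.62 in pair 1 and below 0 in pair 4, and the K562 lists have their highest medians in pair 4.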

How the data were processed

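Per the labels, 3′ mRNA libraries (QuantSeq FWD, spike-in RNAs added) were sequenced and mapped by an in-house pipeline. The submitters' processing notes name Trim Galore, STAR 2.5.3a, SAMtools 1.5 and hg38. The counting program and annotation are not given in the sources used here. The authors deposited raw counts per gene for 25221 genes and 16 libraries. The table holds 0 spike-in rows, and 1425 genes have an Entrez number without a symbol. Libraries were grouped by line, treatment and pair from their titles.

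The test was the quasi-likelihood F test of edgeR 4.0.16 (R 4.3.3, TMM scaling), restricted to genes that reached 10 counts in 4 or more libraries of the fit, with Benjamini-Hochberg adjustment over all genes tested and a threshold of 0.05. The 5 comparisons were Ro against DMSO in each line, the lines under each treatment, and the line difference in the Ro change. Log2 changes by pair use a prior count of 2. Comparisons within and between lines share libraries. The alternatives were a replicate block, DESeq2 1.42.0, other scalings and filters, a single fit of all libraries, leaving out libraries or pairs, and K562 pairs 1 and 3 only. The scripts were tested on simulated data.

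Same-numbered DMSO and Ro libraries deviated together from their group means (mean r across genes 0.570 in MOLM13, lowest 0.384, and 0.281 in K562, lowest 0.110), so the pair numbers from the titles were taken to pair libraries within a line. No pair of libraries of a group agreed within sampling noise, the lowest chi-square over its degrees of freedom being 9.45.

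Genes named by rule were the 10 members, the 2 genes of each list with the smallest blocked p in each line, and the 5 genes most and the 5 least correlated with MYC. The members and lists were chosen with earlier results of these data known. The 8 lists were written by hand from general knowledge. Promoters, strands and gene positions are from RefSeq GRCh38.p14, and overlapping genes from GENCODE 29. Figures were drawn with Python 3.11.15 and matplotlib 3.10.9. One gene of the coactivator list is not reported here.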

Additional observations from a re-analysis of the deposited data

Results flagged for a closer look

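Within the 4 libraries of a group, a library was marked when its gap to the nearest other, divided by the range of the group, passed Dixon's 95% critical value. This happened in 5 of 32 groups tested over the 8 network genes, and chance marks about 1 in 20. MXI1 in MOLM13 DMSO 4 was at 193.7 CPM, with the nearest library at 96.7. MLX in the same library was at 24.6 CPM, with the nearest at 11.6. MYC in K562 Ro 1 was at 16.6 CPM, below the nearest at 23.9. MGA in K562 DMSO 4, one of the shallowest libraries, was at 36.8 CPM, below the nearest at 66.5. MXD4 in MOLM13 Ro 3 was at 24.5 CPM, with the nearest at 21.7.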

How the results depend on the processing

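The replicate block raised the network genes called in MOLM13 from 0 to 1 (MYC), also 1 without pair 4 and 0 without pair 1, 2 or 3, and K562 pairs 1 and 3 alone with the block gave 1 (MYC). Of 133 tested genes of the lists in MOLM13, 0 were called without the block and 12 (9.02%) with it, beside 2.11% of all genes. DESeq2 with the block called 10 (7.52%), beside 1.77%. Without pairs 1 to 4 the blocked fits called 3, 6, 2 and 10 (2.26%, 4.51%, 1.5% and 7.52%). Those fits tested 14957, 14585, 14445 and 14554 genes in all. They called 47, 72, 27 and 155 higher and 59, 115, 22 and 203 lower. K562 pairs 1 and 3 gave 6 of 129 (4.65%), beside 3.06% of all genes. Between the lines the block kept 4 network genes called with DMSO (2910 genes higher and 2828 lower in MOLM13) and gave 3 with Ro (3649 and 3874), where MAX was lost. Same-numbered libraries of different lines were not taken as pairs (mean r -0.0435 and -0.0801). The block changed no other call of a network gene. Library totals changed the genes called higher and lower in MOLM13 from 3215 and 3098 to 2023 and 5008 with DMSO, and from 4112 and 4218 to 2666 and 5319 with Ro. Without the filter MYCN and MXD3 entered some fits, and MYCN, with 12 counts in all, was called lower in MOLM13 with DMSO (-3.68, edgeR adjusted p = 0.0406), a fitted value that depends on the prior count. K562 DMSO 2 and 4 were the shallowest libraries. The causes of the following sign changes were not tested, and none of these values passed its test.

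Scaled to library totals, the Ro change in MOLM13 was 0.036 for MXI1 and 0.020 for MLX, and in K562 -0.045 for MAX. That scaling gave line differences of -0.18 (DMSO) and -0.10 (Ro) for MXD1, and line differences in the Ro change of 0.074 for MXD1 and 0.045 for MXD4. With the block and without pair 4, MOLM13 gave 0.011 for MXI1 and 0.016 for MLX, and K562 gave -0.0062 for MAX, 0.12 for MXD4, -0.017 for MGA and -0.011 for CBX3. The block without pair 1 gave -0.056 for MAX in K562, the block without pair 3 gave 0.077 for MYCL, and a minimum of 50 counts gave -0.0037 for MAX. K562 pairs 1 and 3 alone gave 0.053 for MXD4, -0.048 for MXI1, -0.036 for MNT, -0.076 for MGA, -0.035 for CBX3 and 0.025 for ARRDC4. The line difference of MXD4 with DMSO was 0.017 with the block and 0.025 with DESeq2 and the block. The line difference in the Ro change of MYC was -0.19 with the block, -0.22 with DESeq2 and the block, -0.0020 with DESeq2 size factors and -0.0045 without a filter.

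The following ranges are from fits without the block that left out 1 library at a time. For the Ro changes such a fit leaves the partner of the dropped library unmatched, so differences between pairs enter it. The MOLM13 Ro change ranged from -1.13 to -0.22 for MYC, -0.49 to 0.0022 for MAX and -0.35 to 0.33 for MXI1. It ranged from -0.41 to 0.021 for MNT, -0.39 to 0.39 for MLX and -0.0089 to 0.20 for MGA. Among listed genes it ranged from -0.79 to 0.00085 for MYCL, -0.47 to 0.10 for RUVBL1, -0.38 to 0.073 for TFDP1 and -0.43 to 0.18 for CBX3. The K562 change ranged from -0.083 to 0.13 for MAX, -0.28 to 0.19 for MXD4, -0.011 to 0.25 for MXI1, -0.15 to 0.018 for MLX, -0.44 to 0.15 for MLXIPL, -0.44 to 0.074 for MYCL and -0.10 to 0.28 for CBX3. The line difference of MXD4 with DMSO ranged from -0.19 to 0.26. The line difference in the Ro change ranged from -0.64 to 0.30 for MYC, -0.17 to 0.12 for MXD1, -0.43 to 0.042 for MXD4, -0.47 to 0.22 for MXI1, -0.34 to 0.46 for MLX and -0.26 to 0.0084 for MGA.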
